A study of Homo sapiens with 30 samples.

Results

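The genes described here are 10 giant linkers of the cytoskeleton: the spectrins SPTAN1 and SPTBN1, the plakins PLEC, MACF1 and DST, the nesprins SYNE1 and SYNE2, utrophin (UTRN), AHNAK and filamin A (FLNA). They are 10 of the 60664 genes of the deposited count table and were found in it by symbol. They were chosen by measured values, because PLEC, SPTBN1 and SYNE2 fell in the granule fraction when arsenite was added. For these 10 genes the arsenite comparison in the granule fraction, and the comparisons of that fraction with cytosol, are therefore given as a description without a test. Contrasts between the cell lines, within the granule fraction and in its ratio to cytosol, are tested, since the choice used no line contrast, but they rest on the same libraries by which the genes were chosen.

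The cells were Flp-In T-REx HEK293, an established human embryonic kidney line with a docking site for a tetracycline-inducible transgene. One derivative carried GFP-TIA1a in its wild-type form (WT) and the other with the change found in Welander distal myopathy (WDM), which weakens the muscles of hands and feet. TIA1 is an RNA-binding protein that prefers U-rich sequence and gathers in stress granules. RNA that the labels call cytosol came from cell extracts of both lines, in 18 libraries: without treatment, with tetracycline alone, and with tetracycline plus 0.5 mM sodium arsenite for 60 min. RNA of the granule fraction was recovered by GFP pull-down from a high-speed pellet of both lines, with tetracycline alone and with tetracycline plus arsenite (12 libraries). There were 10 groups with 3 replicates each, and all granule libraries came from cells given tetracycline. Nothing in the labels says that replicates were separate cultures, so a p-value measures only the spread between these libraries, which may be technical. Nor do the labels say whether either line is a single clone, so a difference between the lines cannot be told apart from a difference between isolates.

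Giant linker proteins join cytoskeletal filaments to each other and to membranes. Spectrin tetramers of an alpha and a beta chain form a lattice under the plasma membrane, plakins tie intermediate filaments, actin and microtubules together, and nesprins span the outer nuclear membrane and couple the nucleus to the cytoskeleton. Utrophin, the autosomal relative of dystrophin, binds actin and the dystroglycan complex, AHNAK is a scaffold of the cell cortex, and filamin A crosslinks actin. Their messages are among the longest of the cell, and RNA with long coding regions is known to be abundant in stress granules.

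The library totals ran from 5906167 to 27419145 counts, and the smallest count of any of the 10 genes in any library was 392. A count of 0 would allow up to 0.109 to 0.508 CPM (counts per 1000000 counts of the library), a limit that covers counting error only. Of the 9 HEK293 and epithelial markers, all 9 had counts in every group (summed level 621 to 1690 CPM). The summed level of 6 skeletal muscle markers reached at most 3.44 CPM, that of 3 blood markers 0.430 CPM and that of 4 fibroblast markers 9.08 CPM. TIA1 had 3 counts over the 30 libraries, so the transgene could not serve as a check of the labels. Some libraries stood apart. Among cytosol libraries with tetracycline, WT replicate 1 lay above and WDM replicate 2 below the rest of their groups for most of the 10 genes. In the granule fraction without arsenite, WT replicate 2 was high and WDM replicate 1 low. Bulk RNA does not separate fewer cells from less RNA per cell, and in a pull-down it does not separate less RNA of a gene in granules from fewer granules recovered.

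Because TIA1 binds U-rich RNA, the richest stretch of 30 bases for T was read from the 3' UTR of each longest coding transcript (GENCODE v44, GRCh38, transcript strand, 5' to 3'), with runs of at least 5 T in capitals. Shown are the genes with the densest T runs and, for contrast, SPTAN1 and FLNA, whose 3' UTRs hold no such run.
SPTBN1, chr2:54670944-54670973, plus strand: TTTTTgggTTTTTTgTTTTTTTTTTattct
DST, chr6:56458836-56458865, minus strand: tcTTTTTattttatctgtataaTTTTTTTT
MACF1, chr1:39485924-39485953, plus strand: ttaTTTTTTTTcTTTTTgtaagttactatt
SYNE2, chr14:64226068-64226097, plus strand: ctctgctcttttatattgctttaaaTTTTT
AHNAK, chr11:62516190-62516219, minus strand: tgTTTTTagggttctttagtgttgtttctt
SPTAN1, chr9:128633381-128633410, plus strand: ttgctgcatgtccgctcctctgtgtgctct
FLNA, chrX:154348619-154348648, minus strand: atttggtggcgctgcttgtcttctttggtt
The windows held 24 T in SPTBN1, 22 in DST, 21 in MACF1, 19 in AHNAK, 18 in SYNE2, 15 in FLNA and 12 in SPTAN1.

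The 3' UTR held 14.9 TTTTT matches per kb in DST, 14.6 in SPTBN1, 13.4 in MACF1, 11.0 in SYNE2, 8.31 in AHNAK, 8.01 in SYNE1 and 6.87 in UTRN. PLEC, SPTAN1 and FLNA held none. Matches were counted on the transcript strand with overlaps, and the median of 13063 protein-coding genes was 5.69 per kb. Among those genes, whose 3' UTRs differ in length, 84.5% held at least 1 match. Over the whole transcript the 10 genes had a median of 0.985 matches per kb against 2.91 for 13493 protein-coding genes, since most of their length is coding. The coding share was 69.4% in SPTBN1, 79.7% in UTRN and 90.7% to 95.2% in the other 8, against a median of 44.9%. A match is a description of the letters and not evidence of binding.

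The shared feature was length. The longest coding transcript measured 27708 bases in SYNE1, 24709 in DST, 24340 in MACF1, 21842 in SYNE2, 18761 in AHNAK, 15249 in PLEC, 12918 in UTRN, 10226 in SPTBN1, 8507 in FLNA and 8229 in SPTAN1. The median protein-coding transcript had 3657 bases. Gene architecture was not shared. SYNE1 had 146 exons and its longest exon was 2161 bases, whereas AHNAK had 5 exons and 1 of them spanned 18173 bases. GC content ran from 41.6% in DST to 67.0% in PLEC around a median of 48.3% for all protein-coding genes. No exon of the 10 genes overlapped another annotated gene on its own strand. On the opposite strand the largest overlap was 4.49% of exon length, in SPTBN1, with an lncRNA and SPTBN1-AS1. The strand setting of the counting is not given in the sources used here.

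In untreated WT cytosol, per kb of exon length, FLNA was the highest at 90.2 ± 4.18 CPM per kb (SD, n = 3), followed by SPTBN1 at 31.3 ± 1.04 and SPTAN1 at 19.9 ± 0.220. UTRN followed at 16.8 ± 1.35 CPM per kb. DST, SYNE2, AHNAK and MACF1 lay between 9.39 and 12.6 CPM per kb, and neighbours in that order overlapped between libraries. PLEC, at 2.80 ± 0.153, and SYNE1, at 1.18 ± 0.0721 CPM per kb, were the lowest. In the WT granule fraction without arsenite SPTBN1 led at 411 ± 164 CPM per kb and SPTAN1 followed at 304 ± 152, ahead of FLNA at 176 ± 45.5. Neighbours in this order overlapped between libraries, whereas SPTBN1 lay above FLNA in every library. PLEC stood at 66.5 ± 32.5 CPM per kb, and SYNE1 was again the lowest at 5.43 ± 1.25. Part of the order depended on the length used, here all annotated exons of a gene. Per kb of the longest annotated transcript, MACF1 (382 CPM per kb) and DST (247) lay above FLNA (224) in this group. SPTBN1 and SPTAN1 kept ranks 1 and 2. In untreated WT cytosol MACF1 moved from rank 8 to 4 and UTRN from rank 4 to 6.

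**Figure D1:**
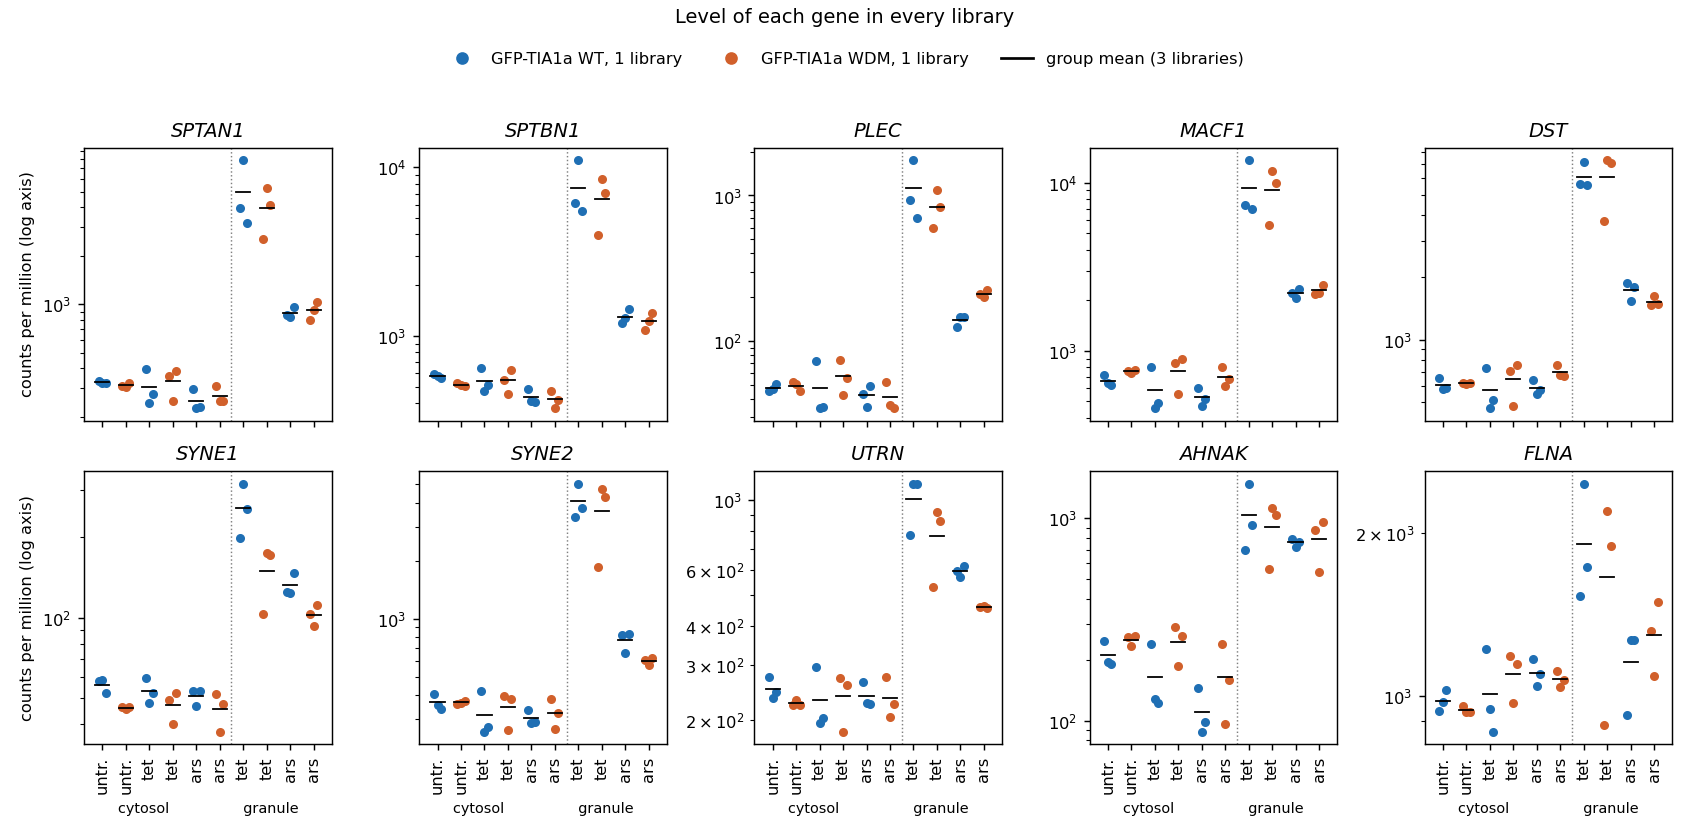
Level of each of the 10 genes in every library, in CPM on a log axis, by group (untr., untreated; tet, tetracycline; ars, tetracycline plus arsenite; cytosol left and granule right of the dotted line). Points are single libraries of WT (blue) and WDM (orange) and bars are means of 3; SPTAN1, SPTBN1, PLEC, MACF1, DST and SYNE2 stand far higher in the granule fraction without arsenite than with it, and AHNAK overlaps between the 2 conditions.

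The 10 genes together took 0.325% to 0.489% of all counts in the 18 cytosol libraries. In granule libraries without arsenite they took 2.97%, 3.06% and 5.19% in WT and 2.04%, 3.71% and 4.31% in WDM. With arsenite the share was 0.919% to 1.03% in WT and 0.894% to 1.02% in WDM. No granule library with arsenite reached the lowest one without it, and every granule library lay above every cytosol library.

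**Figure D2:**
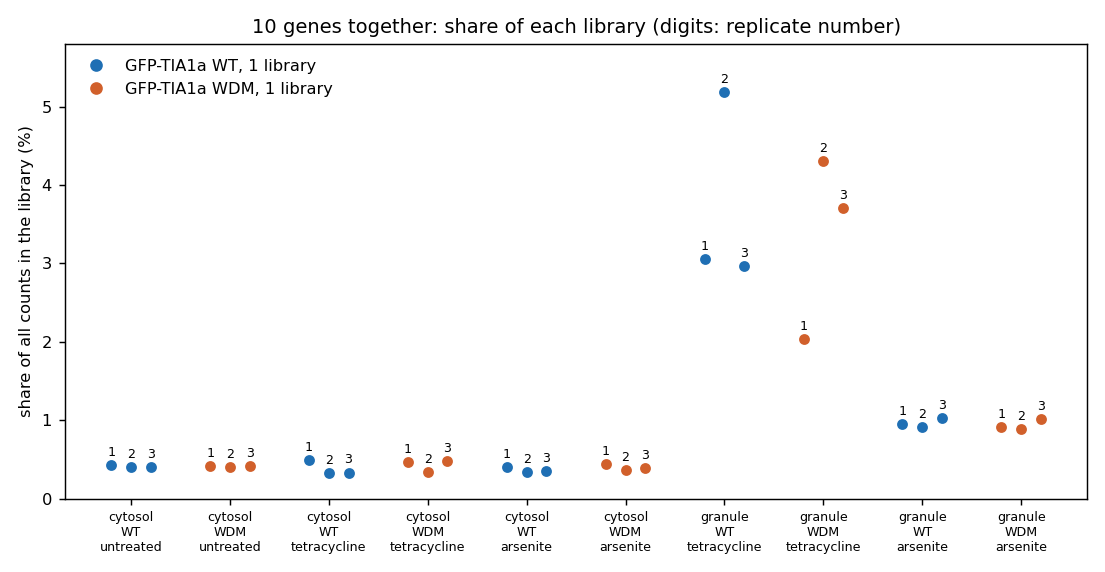
Percent of all counts in each library that fell on the 10 genes, by group, with the replicate number over each point. Granule libraries without arsenite lie between 2.04% and 5.19%, those with arsenite between 0.894% and 1.03%, and cytosol libraries between 0.325% and 0.489%.

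The first comparison asks how far each message was concentrated in the granule fraction before stress. In WT without arsenite, all 10 genes were higher there than in cytosol with tetracycline, by a log2 fold change of 0.89 (FLNA) to 4.55 (PLEC). Their median was 3.52, against 0.07 for all 18141 genes tested and 1.34 for the 741 other genes with a transcript of at least 10 kb. In WDM the median was 3.32 (all genes 0.02, other long genes 1.11), with values of 0.61 (FLNA) to 3.88 (PLEC). SPTAN1 and FLNA have no annotated transcript of 10 kb. Other genes with a transcript of at least 8 kb had medians of 1.08 in WT and 0.91 in WDM. Granule and cytosol libraries did not overlap for all 10 genes in WT and for 9 in WDM, where FLNA overlapped. Of all genes tested, 39.5% in WT and 35.8% in WDM were called higher in the granule fraction (edgeR, adjusted p under 0.05). These comparisons share the granule libraries by which the genes were chosen, so nothing is read from those counts.

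PLEC encodes plectin, which links intermediate filaments to adhesion sites (ENSG00000178209, chromosome 8, 143915153 to 143976734, minus strand, GRCh38). Per kb it was the second lowest of the 10 genes in cytosol, above SYNE1, and it had the highest ratio between fractions. WT cytosol with tetracycline had 72.5, 34.6 and 34.9 CPM in replicates 1, 2 and 3, and the WT granule fraction had 929, 1754 and 705 CPM. In WDM the values were 74.1, 42.3 and 55.3 CPM in cytosol and 594, 1092 and 832 CPM in the granule fraction. Only 1 of the 741 other long genes had a higher ratio in each line.

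The next comparison is the one that defined the set, arsenite against tetracycline alone within the granule fraction. All 10 genes had lower means with arsenite in both lines. The median log2 fold change was -1.93 in WT and -2.06 in WDM. It was -0.03 and 0.01 for all 18366 genes tested and 0.04 and 0.03 for the 755 other genes of at least 10 kb. For other genes of at least 8 kb it was 0.08 and 0.05. Libraries with and without arsenite overlapped for AHNAK in WT and for SYNE1, AHNAK and FLNA in WDM, and not for the other members. The share of all genes without such overlap was not computed, so nothing is read from this. By edgeR, a measure unlike overlap, 14.1% of all genes in WT and 17.7% in WDM were called lower. The genes split into 6 with a log2 fold change of -1.79 or lower in both lines and 4 (SYNE1, UTRN, FLNA, AHNAK) that lay between -0.95 and -0.28.

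**Figure D3:**
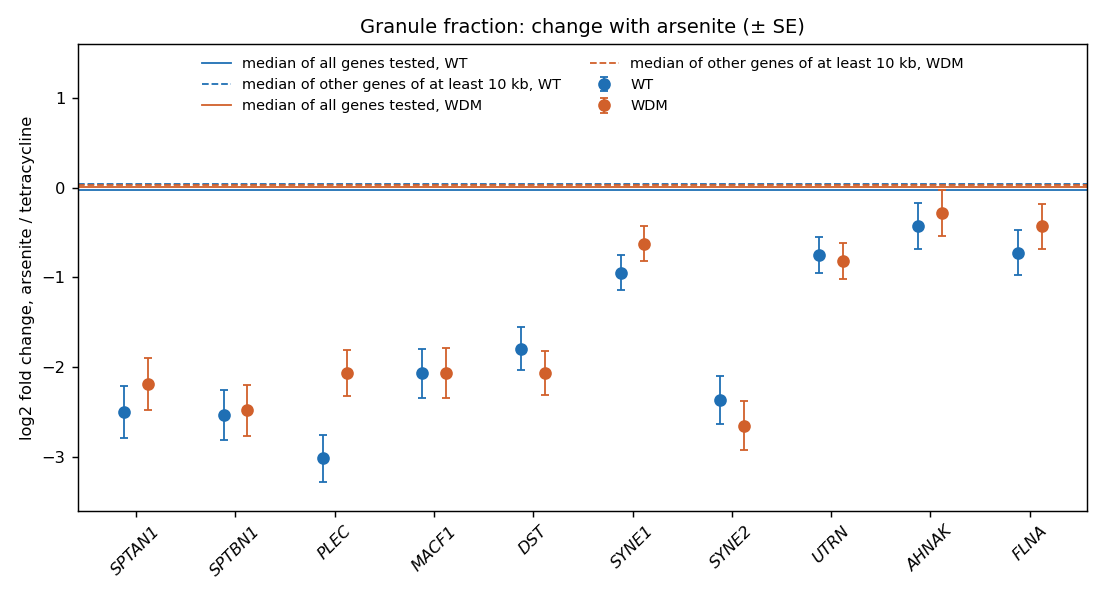
Log2 fold change of each gene in the granule fraction, tetracycline plus arsenite against tetracycline alone, with its standard error, in WT (blue) and WDM (orange). Solid and dashed lines are the medians of all genes tested and of other genes with a transcript of at least 10 kb, which lie between -0.03 and 0.04; SPTAN1, SPTBN1, PLEC, MACF1, DST and SYNE2 lie at -1.79 or lower.

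The spectrins moved alike. SPTBN1, the beta chain of non-erythroid spectrin (ENSG00000115306, chromosome 2, 54456317 to 54671446, plus strand), had 6173, 11068 and 5519 CPM in the WT granule fraction without arsenite and 1190, 1277 and 1438 CPM with it. In WDM it had 3996, 8539 and 7006 CPM without arsenite and 1082, 1230 and 1362 CPM with it. The groups were far apart in both lines, at a log2 fold change of -2.54 (SE 0.280) and -2.48 (SE 0.280). SPTAN1, its alpha partner (ENSG00000197694, chromosome 9, 128552558 to 128633662, plus strand), went from 3955, 7865 and 3215 to 853, 832 and 967 CPM in WT (-2.49, SE 0.289). In WDM it went from 2558, 5249 and 4106 to 801, 920 and 1025 CPM (-2.19, SE 0.286). Across the 12 granule libraries the log2 levels of the 2 chains had a Pearson correlation of 0.997, given without a p since the libraries fall in the arsenite groups.

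In WT, PLEC ranked first from the lowest among 18366 genes, at a log2 fold change of -3.02 (SE 0.264), with 125, 146 and 147 CPM under arsenite. WDM libraries with arsenite held more, 210, 200 and 223 CPM, and PLEC's log2 fold change there was -2.06 (SE 0.254), rank 42 from the lowest. The difference between the lines in this change was 0.95 (SE 0.347). Without WT replicate 2 of the granule fraction, the library with 1754 CPM, the change in WT was -2.50 and the difference between lines 0.43.

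Both spectraplakins, which crosslink actin and microtubules, changed by similar amounts. MACF1 (ENSG00000127603, chromosome 1, 39081316 to 39487177, plus strand) had the highest CPM of the 10 genes in the granule fraction. It went from 7332, 13613 and 6922 to 2196, 2056 and 2325 CPM in WT and from 5578, 11763 and 9877 to 2187, 2211 and 2456 CPM in WDM. Its log2 fold changes were -2.07 (SE 0.277) and -2.06 (SE 0.277). DST, dystonin (ENSG00000151914, chromosome 6, 56457987 to 56954830, minus strand), went from 5613, 7150 and 5568 to 1879, 1528 and 1796 CPM in WT (-1.79, SE 0.242). In WDM it went from 3737, 7346 and 7077 to 1475, 1620 and 1477 CPM (-2.06, SE 0.244).

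The 2 nesprins parted. SYNE2 (ENSG00000054654, chromosome 14, 63761899 to 64226433, plus strand) went from 3368, 5016 and 3766 to 825, 666 and 835 CPM in WT and from 1841, 4692 and 4258 to 610, 577 and 628 CPM in WDM. The log2 fold changes were -2.36 (SE 0.268) and -2.65 (SE 0.271). SYNE1 (ENSG00000131018, chromosome 6, 152121687 to 152637801, minus strand), the longest transcript of the set, went from 199, 318 and 256 to 125, 124 and 148 CPM in WT (-0.95, SE 0.195). In WDM it went from 103, 175 and 172 to 103, 92.9 and 112 CPM (-0.62, SE 0.195), and there the groups overlapped. The 2 spectrins, whose transcripts are far shorter than that of SYNE1, had some of the lowest log2 fold changes. SPTBN1 was chosen by its fall, and an order of the changes by length was not tested.

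UTRN, AHNAK and FLNA changed less. UTRN (ENSG00000152818, chromosome 6, 144285701 to 144853034, plus strand, coordinates as deposited) went from 777, 1123 and 1131 to 596, 569 and 619 CPM in WT (-0.75, SE 0.200) and from 532, 917 and 863 to 459, 461 and 455 CPM in WDM (-0.82, SE 0.201). AHNAK (ENSG00000124942, chromosome 11, 62433542 to 62556235, minus strand) had 694, 1484 and 921 CPM without arsenite and 789, 724 and 766 CPM with it in WT, so the groups overlapped (-0.43, SE 0.257). In WDM it had 563, 1126 and 1036 against 875, 542 and 960 CPM (-0.28, SE 0.257). FLNA (ENSG00000196924, chromosome X, 154348524 to 154374634, minus strand) went from 1532, 2472 and 1734 to 923, 1269 and 1272 CPM in WT (-0.73, SE 0.252), without overlap. In WDM its 885, 2196 and 1891 CPM overlapped the 1318, 1087 and 1490 CPM with arsenite (-0.43, SE 0.251). Without WT replicate 2 the changes in WT were -0.03 in AHNAK and -0.46 in FLNA.

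With the changes in both fractions combined, the granule-to-cytosol ratio stayed above 0 on the log2 scale for all 10 genes under arsenite, with medians of 1.59 in WT and 1.30 in WDM. The other genes of at least 10 kb had 1.18 and 0.96. Granule and cytosol libraries did not overlap for 9 of 10 genes in each line, the exception being FLNA. Of all genes tested, 35.0% in WT and 36.3% in WDM were called higher, and nothing is read from these counts either. PLEC's log2 ratio moved from 4.55 (SE 0.346) to 1.72 (SE 0.311) in WT and from 3.88 (SE 0.336) to 2.31 (SE 0.315) in WDM. SYNE2's moved from 3.65 to 1.36 and from 3.39 to 0.83, below the median of other long genes in WDM. AHNAK's was 2.64 (SE 0.361) without and 2.79 (SE 0.364) with arsenite in WT, and 1.90 (SE 0.351) and 2.21 (SE 0.355) in WDM, which makes it the highest of the 10 under arsenite in WT. FLNA stood at 0.06 (SE 0.236) and 0.21 (SE 0.237) with arsenite.

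**Figure D4:**
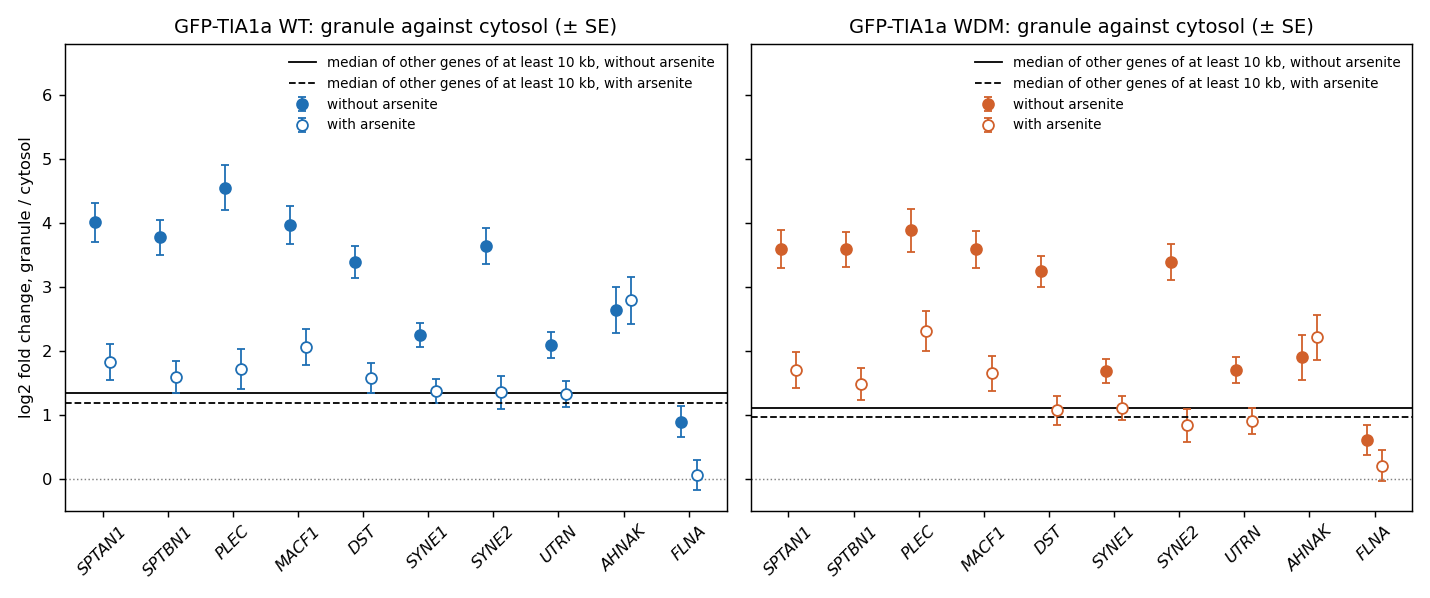
Log2 fold change of the granule fraction against cytosol, with its standard error, for each gene without (filled) and with (open) arsenite, in WT (left) and WDM (right). Black lines are the medians of the other genes with a transcript of at least 10 kb, 1.34 and 1.18 in WT and 1.11 and 0.96 in WDM; the open points of SYNE2 and UTRN lie near those lines, and those of AHNAK lie at 2.79 and 2.21.

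Other RNA classes were summed in these granule groups as well. The summed level of 6 mitochondrial transcripts was 1860 to 3952 CPM in WT without arsenite and 496 to 1279 with it, without overlap, and 1096 to 3334 and 897 to 1443 CPM in WDM, with overlap. The sum of 4 nuclear RNAs (NEAT1, MALAT1, MEG3, KCNQ1OT1) lay between 2243 and 3566 CPM in all granule libraries, with overlap between the arsenite groups, and between 202 and 860 CPM in cytosol. In the 2 granule libraries that stood apart, WT replicate 2 and WDM replicate 1, the mitochondrial sum was 1860 and 1096 CPM, the lowest of their groups. Their part in the results was not tested.

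The 3 genes whose granule pattern was most like that of PLEC, SPTBN1 or SYNE2 were sought among the 11514 named genes whose mean level reached 5 CPM, by Pearson correlation of log2 CPM over the 12 granule libraries. For PLEC they were SPTAN1 (0.984), MACF1 (0.978) and SPTBN1 (0.977). For SPTBN1 they were SPTAN1 (0.997), MACF1 (0.995) and DST (0.987). For SYNE2 they were DST (0.996), SPTBN1 (0.987) and IMMT (0.987), the last a mitochondrial inner membrane protein with a transcript of 2689 bases and the sole gene outside the set. These libraries differ in depth and fall in the arsenite groups, so the correlations describe them only.

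The cytosol comparisons share no library with the choice of genes. Tetracycline alone called 0 of 10 genes in either line by edgeR's quasi-likelihood test, while 5.31% of all genes in WT and 6.30% in WDM were called. At an unadjusted p under 0.05 there were 0 in WT and 1 in WDM (FLNA), and DESeq2 called 0 in both. The log2 fold changes ran from -0.33 to 0.08 in WT and from -0.06 to 0.25 in WDM.

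Arsenite lowered 1 of 10 genes in the cytosol of each line, SPTBN1, where 15.4% of all genes in WT and 14.8% in WDM were called lower and 29.0% and 28.8% were called in either direction. A count of 1 is no more than that background. In WT, same-numbered libraries with tetracycline and with arsenite deviated together (r of at least 0.117 in all 3 pairs). With the replicate number as a block, 3 of 10 were lower in WT (SPTBN1, SPTAN1 and AHNAK), where 18.9% of all genes were lower and 35.4% were called. In WDM the block gave 4 of 10 lower, where 17.6% of all genes were lower and 34.1% were called. They were SPTBN1 (edgeR adjusted p = 0.000453), AHNAK (0.00680), SPTAN1 (0.0136) and PLEC (0.0412). Same-numbered WDM libraries did not deviate together in all 3 pairs (lowest r -0.0995). SPTBN1 had 648, 469 and 513 CPM with tetracycline and 482, 410 and 407 CPM with arsenite in WT, and 550, 455 and 632 against 473, 371 and 419 CPM in WDM. The groups overlapped in each line. After TMM scaling SPTBN1 fell by 0.46 on the log2 scale in WT (SE 0.108, edgeR adjusted p = 0.00457) and by 0.46 in WDM (SE 0.108, edgeR adjusted p = 0.00421). With library size alone as the scaling, the edgeR adjusted p in WT was 0.0530. SPTAN1 missed the threshold at a log2 fold change of -0.41 in WT (SE 0.152, edgeR adjusted p = 0.0518; 0.00979 with the block) and -0.39 in WDM (SE 0.152, adjusted p = 0.0630). AHNAK stood at -0.69 in WT (SE 0.293, edgeR adjusted p = 0.0894; 0.0100 with the block) and -0.68 (SE 0.290, adjusted p = 0.0927), and PLEC in WDM at -0.57 (SE 0.246, edgeR adjusted p = 0.0921). Replacing TMM by library size alone moved the median of all genes in this WT comparison by 0.13 on the log2 scale, and 76.7% of calls were then higher against 47.1% with TMM (66.8% against 48.8% in WDM). The median over the 10 genes was -0.23 in WT and -0.20 in WDM, against -0.02 and -0.00 for all genes and 0.11 and 0.14 for the 703 other genes of at least 10 kb. DESeq2 called 2 in each line, SPTBN1 with SPTAN1 in WT and with PLEC in WDM.

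Between the lines in the cytosol, 0 of 10 genes were called by edgeR in any of the 3 conditions. The call share over all genes was 9.78% untreated, 12.6% with tetracycline and 10.4% with arsenite, and DESeq2 called 0 of 10 in each. At an unadjusted p under 0.05 there was 1 in each condition, SYNE1 untreated, SYNE1 with tetracycline and MACF1 with arsenite. Untreated SYNE1 had 57.7, 58.6 and 52.3 CPM in WT and 46.2, 45.6 and 46.4 CPM in WDM, groups that did not overlap, with a log2 fold change of -0.32 (SE 0.108, edgeR adjusted p = 0.0643). Untreated libraries of the lines did not overlap either for SPTBN1 and UTRN, lower in WDM, and MACF1, higher in WDM. The share of all genes without such overlap was not computed, so nothing is read from these gaps. The 17 tested genes within 2 Mb of SPTBN1 had a median log2 fold change of -0.24, beside -0.20 for SPTBN1. Near UTRN (-0.19) and MACF1 (0.16) the medians had the other sign, at 0.07 and -0.06. The part of the region was not tested. MACF1 was 0.34 higher in WDM with tetracycline (SE 0.175, edgeR adjusted p = 0.223) and 0.39 higher with arsenite (SE 0.175, adjusted p = 0.184), and AHNAK 0.54 (SE 0.290, adjusted p = 0.248) and 0.55 (SE 0.292, adjusted p = 0.275). None of these 4 passed. Without WT tetracycline replicate 1, edgeR called 3 of 10 with tetracycline: MACF1 (0.60), AHNAK (0.88) and PLEC (0.62). All 3 were higher in WDM. In that fit 26.9% of all genes were called in either direction, and 2250 of 16969 were called higher in WDM. Nothing is read from this count, which depends on leaving out a library. The summed level of the 4 nuclear RNAs in these libraries was 508, 211 and 202 CPM in WT and 649, 329 and 556 CPM in WDM, and its part in the result was not tested. No difference between the lines in either response passed: the interaction of line with tetracycline called 0 of 10 (0.0180% of all genes) and that with arsenite 0 of 10 (0% of all genes), with 0 at an unadjusted p under 0.05 and 0 by DESeq2.

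Between the lines in the granule fraction without arsenite, 1 of 10 genes passed. SYNE1 was lower in WDM, at 103, 175 and 172 CPM against 199, 318 and 256 CPM, groups that did not overlap. It fell by 0.78 on the log2 scale (SE 0.195, edgeR adjusted p = 0.0135), where 2.95% of all genes were called lower in WDM and 5.55% in either direction. The call rested on single libraries. Without WT replicate 2 the log2 fold change was -0.57 (edgeR adjusted p = 0.158) and without WDM replicate 1 it was -0.55 (adjusted p = 0.0639). The 14 tested genes within 2 Mb of SYNE1 had a median of -0.10. In the 9 other genes the difference ran from -0.44 (PLEC, SE 0.245, edgeR adjusted p = 0.385) to -0.01 (DST). PLEC turned to 0.068 without WT replicate 2.

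With arsenite, 0 of 10 genes were called between the lines in the granule fraction, where 7.95% of all genes were called. At an unadjusted p under 0.05 there were 3 (PLEC, SYNE1, UTRN), and DESeq2 called 0. PLEC was 0.52 higher in WDM (SE 0.246, edgeR adjusted p = 0.196). Its libraries did not overlap between the lines, and neither did those of SYNE1, SYNE2 and UTRN, which were lower in WDM. The share of all genes without such overlap was not computed, so nothing is read from this. Tested genes within 2 Mb had medians of 0.18 (PLEC), -0.14 (SYNE1), 0.01 (SYNE2) and -0.04 (UTRN), and their part was not tested. SYNE1 stood at -0.46 (SE 0.194, edgeR adjusted p = 0.145) and UTRN at -0.47 (SE 0.200, adjusted p = 0.147). The line difference in the granule-to-cytosol ratio called 0 of 10 in each condition, where 0.00551% of all genes, 1 gene, were called in each. At an unadjusted p under 0.05 there was 1 without arsenite (SYNE1) and 0 with it, and DESeq2 called 0. Its values ran from -0.73 (AHNAK) to -0.15 (DST) without arsenite and from -0.58 (AHNAK) to 0.60 (PLEC) with it.

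**Figure D5:**
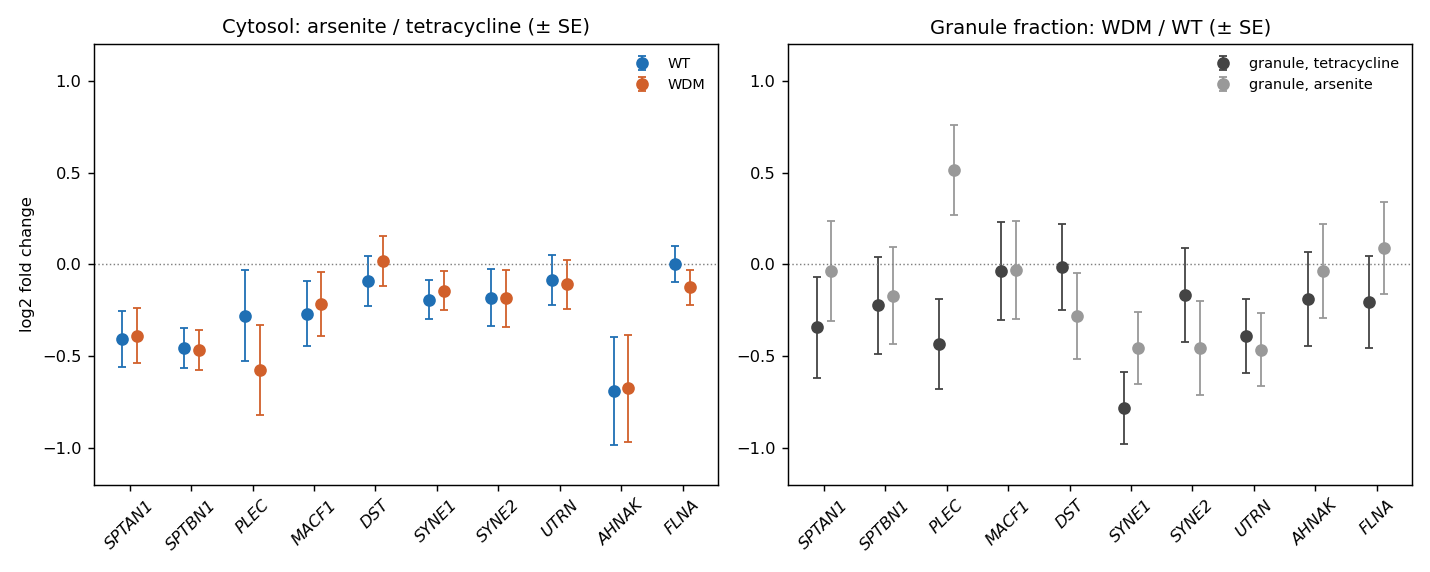
Log2 fold change of each gene with its standard error, left for arsenite against tetracycline in the cytosol of WT (blue) and WDM (orange), right for WDM against WT in the granule fraction without (dark) and with (light) arsenite. SPTBN1 passed the test at -0.46 in both lines on the left and SYNE1 at -0.78 without arsenite on the right; no other point passed.

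The partners of these proteins were followed in 7 lists with 74 genes, chosen with earlier results of these data known. In the granule fraction 70 were tested. With arsenite 11 rose and 15 fell in WT (30.6% of all genes called) and 15 rose and 14 fell in WDM (36.3% called). Among the spectrin and ankyrin skeleton, 18 of 19 were tested, and WT had 2 higher and 5 lower. WDM had 6 higher and 5 lower, and SPTB, ANK2, ANK3 and ADD3 were lower in both lines. Of the plakins and their anchors (11 of 12 tested), ITGB1, a fibronectin receptor subunit, rose and DSP, EPPK1 and VIM fell in both lines. The LINC complex and lamina (10 of 11) had 3 higher in WT and 2 in WDM, with LMNB1 and LMNB2 in both, and none lower. The dystrophin complex (13 of 14) had 2 rising and 2 falling in WT, and 1 rising and 3 falling in WDM. DAG1, which encodes dystroglycan, rose in both. Actin crosslinkers and actins (8 of 8) had 1 rising and 4 falling in WT, and 2 rising and 2 falling in WDM. AHNAK partners (4 of 4) had 0 called in WT and 1 each way in WDM. Microtubule plus-end partners (6 of 6) had 2 higher in each line, MAPRE1 and CLIP1, and 1 lower in WT. The list medians lay between -0.45 and 0.15.

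Of the 21 partner genes with the highest CPM, 3 from each list, 12 were called in the granule fraction in both lines, and 6 of these kept the call under every alternative run in both lines. The share of all genes called in both lines was not computed, so nothing is read from these counts. DSP, the desmosomal plakin desmoplakin, fell by 1.17 on the log2 scale in WT (SE 0.257, edgeR adjusted p = 0.00126) and by 1.32 in WDM (SE 0.257, adjusted p = 0.000286), and the adducin ADD3 by 0.55 (SE 0.155, adjusted p = 0.00909) and by 0.86 (SE 0.155, adjusted p = 0.000120). DAG1 rose by 1.43 (SE 0.171, edgeR adjusted p = 2.36e-06) and 1.55 (SE 0.171, adjusted p = 3.63e-07), and MAPRE1, a microtubule end-binding protein, by 0.76 (SE 0.163, adjusted p = 0.000945) and 0.70 (SE 0.162, adjusted p = 0.00139). The 6 that did not, ANK2, VIM, ITGB1, LMNB2, LMNB1 and ACTG1, lost their call under at least 1 alternative in at least 1 line.

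In the cytosol 63 of the 74 partners were tested. With arsenite 6 rose and 14 fell in WT and 5 rose and 14 fell in WDM. These are 31.7% and 30.2% of those tested, close to the 29.0% and 28.8% of all genes. Of the same 21, 8 were called in both lines, among them ANK2, ITGB1, LMNB2, SUN1, DTNA and S100A10. Here too the share of all genes called in both lines was not computed, and nothing is read from the count. ITGB1 and DTNA kept the call under every alternative in both lines. ITGB1, which rose in the granule fraction, fell in the cytosol by 0.70 on the log2 scale (SE 0.0895, edgeR adjusted p = 2.78e-05) in WT and by 0.66 in WDM (SE 0.0895, adjusted p = 5.4e-05). DTNA, which encodes the dystrobrevin of the utrophin complex, rose by 0.93 (SE 0.207, edgeR adjusted p = 0.00470) and 0.89 (SE 0.207, adjusted p = 0.00601). The number of partners that rose in WT was 2 without WT tetracycline replicate 3, 3 without WT tetracycline replicate 2 or without arsenite replicate 1 or 2, and 11 without tetracycline replicate 1.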

How the data were processed

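RNA of 30 libraries was measured by total RNA sequencing with rRNA depletion. Whole-number read counts per gene were deposited by the authors for all 30 libraries in 1 table, not normalized. Trimmomatic, STAR, Picard and featureCounts, with GRCh38, are named per the submitters' processing notes; versions, annotation release and strand setting are not given in the sources used here. Gene coordinates are those of the deposited table, and 60463 of its 60664 identifiers matched GENCODE v44, from which transcript lengths and sequences were taken.

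CPM are counts divided by the library total. The test was that of edgeR 4.0.16, run on the counts under R 4.3.3 (filterByExpr with minimum count 10 and minimum total 15, TMM, robust quasi-likelihood F-test, Benjamini-Hochberg over all genes, called at adjusted p under 0.05). Cytosol (18 libraries, 16670 genes), granule (12 libraries, 18366 genes) and both fractions with tetracycline (24 libraries, 18141 genes) were fitted separately. SE is the log2 fold change divided by the square root of F. Scripts were tested on simulated data. DESeq2 1.42.0, RLE factors, library size alone, no filter, a replicate block, fits of only the groups compared and leaving out each library were the alternatives. Libraries of a group differed by a chi-square of at least 1.63 per degree of freedom, so none was a repeated deposit. No batch is labelled.

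Replicate numbers are not stated to pair libraries. Deviations of same-numbered libraries correlated above 0.1 in all 3 pairs for WT cytosol untreated and tetracycline (lowest 0.130), WT cytosol tetracycline and arsenite (0.117), WDM granule without and with arsenite (0.225), and granule and cytosol with arsenite in WT (0.119) and WDM (0.420). Of these 5 comparisons only tetracycline and arsenite in WT cytosol are tested for the 10 genes. The block changed calls in 1, WT cytosol with arsenite, where its values are given beside the result. The comparisons that involve the granule fraction are given without a test.

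The members and lists were chosen with earlier results of these data known. Named are all 10 members, the 3 partners of each list with the highest mean CPM, and for PLEC, SPTBN1 and SYNE2 the 3 most correlated genes. Partners given with values are among those whose call held under every alternative, which was seen after the values. Other called list members are named beside small counts. Some list members are counted but not reported here by name.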

Additional observations from a re-analysis of the deposited data

How the results depend on the processing

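Counts here are of the 10 genes called. Tetracycline, both cytosol interactions and both line differences in granule enrichment stayed at 0 under every alternative run. Arsenite in cytosol called 1 in each line; in WT it called 0 with library size alone, 2 without the low-count filter, 2 with DESeq2 and 1 to 2 without single libraries, and in WDM 2 without the filter, 2 with DESeq2 and 1 to 2 without single libraries. Between the lines in cytosol 0 were called; fitting only the groups compared gave 4 untreated (36.0% of all genes) and 1 with arsenite (9.22%), and leaving out single libraries gave 0 to 3 with tetracycline. In the granule fraction, the line contrast without arsenite went from 1 to between 0 and 1 without single libraries, and that with arsenite from 0 to 1 without the filter or with only the groups compared. With the replicate block, arsenite in cytosol called 3 in WT (35.4% of all genes) and 4 in WDM (34.1%), and the lines in cytosol 1 untreated (12.7%), 2 with tetracycline (17.1%) and 1 with arsenite (13.9%). Of these, deviations of same-numbered libraries correlated above 0.1 in all 3 pairs for arsenite in WT alone, which is not a stated pairing. For tetracycline in WT cytosol, which had such correlations too, the block changed no call of the 10 genes. The remaining comparisons with such correlations involve the granule fraction and are given without a test. The cause of the changed counts was not tested.

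Without single libraries, the median for arsenite in the WT granule fraction lay between -2.09 and -1.63, and that for granule against cytosol in WDM with tetracycline between 3.10 and 3.63. PLEC between the lines without arsenite in the granule fraction lay between -0.70 and 0.068. Over all genes, fitting only the groups compared changed the number called by edgeR from 886 to 220 for tetracycline in WT, from 4838 to 2737 and from 4804 to 1921 for arsenite in WT and WDM cytosol, from 1631 to 5463 between untreated lines and from 2108 to 852 between the lines with tetracycline. Without single libraries the number was 189 to 1766 and 422 to 771 for tetracycline in WT and WDM (main value 1050 in WDM), 2440 to 7204 and 2490 to 5251 for arsenite in cytosol, 929 to 1212 and 1209 to 4573 between the lines untreated and with tetracycline, and 1094 to 2205 with arsenite (main value 1726). In the granule fraction it was 570 to 1330 and 569 to 1719 between the lines without and with arsenite (main values 1019 and 1460), and 3157 to 5418 for arsenite in WT (main value 5620). Library size alone moved the share of higher calls from 55.1% to 43.9% for tetracycline in WT, from 45.9% to 56.0% between the lines with tetracycline in cytosol, and from 51.7% to 66.0% between the lines with arsenite in the granule fraction. Of the partner counts with arsenite, those higher ranged over all alternatives from 2 to 11 in WT and 2 to 8 in WDM cytosol and those lower from 7 to 17 and 6 to 19; in the granule fraction they were 7 to 12 and 9 to 15 higher, 10 to 15 and 12 to 17 lower. The smallest member count was 392, so counting error is small beside the spread between libraries.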
